A study of Mus musculus with 8 samples.

Results

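The genes described here are the 9 that encode serine synthesis enzymes, folate one-carbon enzymes and the mitochondrial form of phosphoenolpyruvate carboxykinase, namely Phgdh, Psat1, Psph, Shmt1, Shmt2, Mthfd2, Mthfd1l, Aldh1l2 and Pck2, out of 23413 gene symbols counted. They were chosen from this pathway after results on the same libraries had been seen, including their own levels in DMSO and thiostrepton mice, so their values are given as a description and carry no test. RNA was sequenced from tumour-associated macrophages (TAMs) of male C57BL/6 mice, 8 to 10 weeks old when the tumour cells were injected. They carried subcutaneous tumours of B16F10, a mouse melanoma line of the same strain background. Thiostrepton, a thiazole antibiotic, or its solvent DMSO was given on days 6 and 12, and tumours were taken on day 18. There were 2 DMSO mice, 4 mice treated by the intraperitoneal route (I.P.) and 2 mice treated beside the tumour under the skin (S.C., 20 mg/kg). The I.P. dose of these mice and the route of the DMSO injections were not given in the sources used here. The paper describes its S.C. dose as lower than its I.P. doses, so route and dose cannot be told apart. All the mice carried the same tumour, no gene was deleted or added, and 1 library was made from the CD45+ F4/80+ CD11b+ Gr-1- cells of each mouse, with the S.C. libraries labelled IS.

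Phgdh, Psat1 and Psph act in that order to turn the glycolytic intermediate 3-phosphoglycerate into serine. Shmt1 in the cytosol and Shmt2 in mitochondria then move a carbon from serine to tetrahydrofolate, which gives glycine, and Mthfd2, Mthfd1l and Aldh1l2 carry that mitochondrial carbon on towards formate or carbon dioxide, with NADH or NADPH made along the way. Pck2 makes phosphoenolpyruvate from oxaloacetate in mitochondria, which can feed 3-phosphoglycerate, and several of these genes are known targets of ATF4, the transcription factor of the integrated stress response.

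The libraries held 14127506 to 17577466 counts, and a count of 3 was taken as the floor, at 0.169 to 0.218 CPM (counts scaled to a common library size), with library sizes adjusted by the trimmed mean of M values. All 12 macrophage markers were detected in every library, with summed levels of 27770 to 41630 CPM, so the labelled cell type had its defining markers. The 8 melanoma markers were also detected in every library, at 484 to 1759 CPM summed in the DMSO and I.P. mice, 3063 in S.C. mouse 1 and 753 in S.C. mouse 2. Of 10 neutrophil markers 9 were counted, and they summed to 133 to 193 CPM in the DMSO and I.P. mice against 293 and 498 in the S.C. mice. S.C. mice also had more T and NK cell marker signal, at 60.7 and 25.7 CPM against 1.44 to 18.4 elsewhere. I.P. mouse 1 stood apart, with a mean level of 16 S phase and mitosis genes of 4.94 on the log2 CPM scale against 6.54 to 7.26 in the other libraries, and its F4/80 gene level was 318 CPM, the lowest of the 8.

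The promoters are shown for 3 members to set the sequence of a gene that was higher in all the I.P. mice, Pck2, beside Phgdh, which had the largest difference, and Psat1, the next enzyme after Phgdh, which had none of this size. The letters searched were TGATGNAA, the core of the element that ATF4 shares with CEBP proteins, on both strands, with N for any base, and a match is in capitals. RefSeq windows (GRCm38.p6) from 250 bases before to 50 after the start were given for 8 of the 9 members, 9 windows in all since Psat1 has 2, and none was at hand for Aldh1l2. Of these windows 1 held the motif, that of Pck2, against 283 of 11755 promoters of genes tested (2.41%) and 1304 of 32851 of all promoters (3.97%). The Pck2 match lay on the minus strand, starting at base -103 from the start site, and a match describes letters only.
Pck2, chr14:55540016-55540315, plus strand: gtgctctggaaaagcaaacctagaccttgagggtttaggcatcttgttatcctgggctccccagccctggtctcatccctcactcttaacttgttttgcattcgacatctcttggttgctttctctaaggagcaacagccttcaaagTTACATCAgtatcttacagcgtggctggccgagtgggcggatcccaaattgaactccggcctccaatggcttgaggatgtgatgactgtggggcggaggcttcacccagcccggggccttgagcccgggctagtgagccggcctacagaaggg
Phgdh, chr3:98339920-98340219, minus strand: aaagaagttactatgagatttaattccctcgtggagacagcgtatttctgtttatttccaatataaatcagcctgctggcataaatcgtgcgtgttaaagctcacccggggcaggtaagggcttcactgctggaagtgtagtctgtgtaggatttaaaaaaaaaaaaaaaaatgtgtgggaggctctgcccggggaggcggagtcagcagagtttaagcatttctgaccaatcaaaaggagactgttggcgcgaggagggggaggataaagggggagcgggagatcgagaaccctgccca
Psat1, chr19:15925010-15925309, minus strand: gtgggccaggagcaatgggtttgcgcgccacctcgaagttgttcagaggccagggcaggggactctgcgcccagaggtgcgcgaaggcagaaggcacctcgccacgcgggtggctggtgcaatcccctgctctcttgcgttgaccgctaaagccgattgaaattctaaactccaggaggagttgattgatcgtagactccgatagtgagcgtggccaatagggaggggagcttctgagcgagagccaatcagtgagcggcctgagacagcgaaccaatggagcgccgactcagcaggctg

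By the criterion of the study, an unadjusted P under 0.05 in edgeR with at least a 2-fold difference, 2 of the 9 members (Phgdh and Pck2) were called in I.P. mice, where 243 of 12174 genes (2%) were, and 1 (Phgdh) in S.C. mice, where 591 of 11680 genes (5.06%) were. Without the fold limit 4 members passed in I.P. mice (Phgdh, Pck2, Mthfd2 and Psph), against 3.43% of genes, and 1 in S.C. mice, against 5.41%. No gene had an edgeR adjusted p under 0.05 in either comparison (0% of genes), while 418 and 632 had an unadjusted P under 0.05 and DESeq2 gave 19 and 107 genes by its adjusted p, 1 and 0 of them members. Every I.P. mouse exceeded both DMSO mice for 6 members (Phgdh, Pck2, Mthfd2, Psph, Shmt2 and Aldh1l2), as for 7.31% of genes, and below for 0, as for 6.83%. The S.C. mice lay above for 2 (Phgdh and Mthfd1l), as for 17.1% of genes, and below for 3 (Psat1, Shmt1 and Aldh1l2), as for 17.2%. The median log2 fold change of the 9 was 0.74 in I.P. and 0.27 in S.C. mice, beside 0.02 over all genes tested in both. These counts include the values by which the members were chosen, and the routes share their DMSO mice, so the values are set side by side only. With 4 mice against 2 an exact two-sided rank sum test of a single gene cannot go below p = 0.133, and with 2 against 2 below 0.333. The S.C. calls depended on both DMSO mice, the I.P. calls most on mouse 1, and the members' calls did not hold without mouse 1. The log2 fold change of Phgdh without DMSO mouse 1 was 1.89 in I.P. and 1.52 in S.C. mice. Without DMSO mouse 2 it was 3.16 and 2.79.

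**Figure D1:**
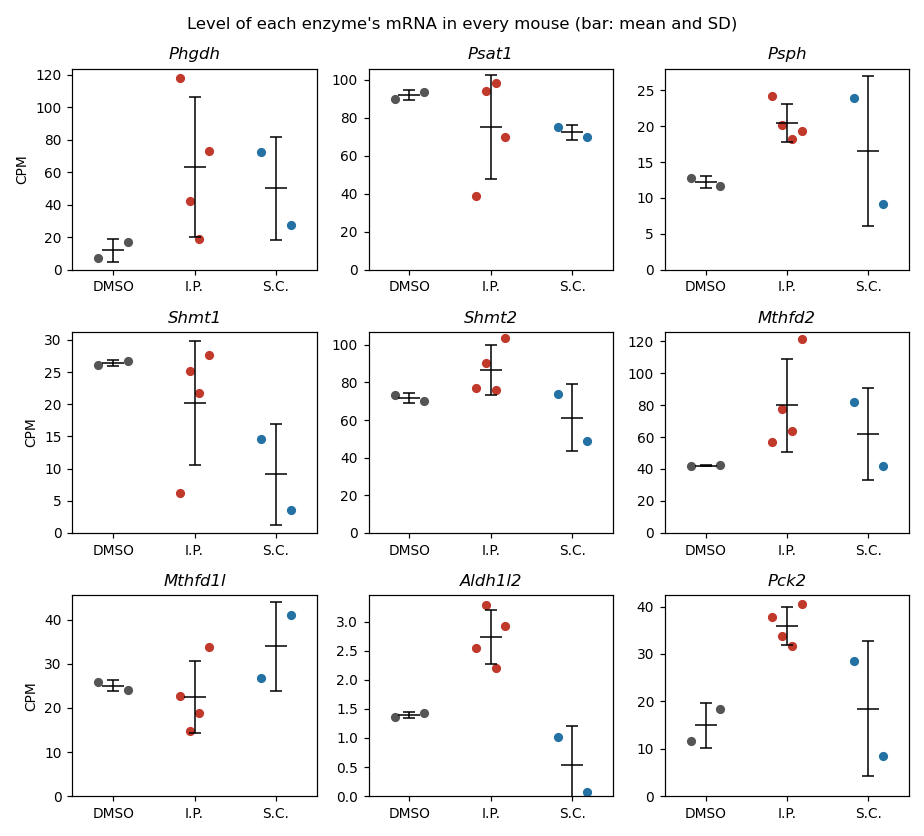
Each panel plots the CPM of 1 gene in every mouse of the DMSO (grey), I.P. (red) and S.C. (blue) groups, with the mean and SD as a bar. All 4 I.P. mice sit above both DMSO mice for Phgdh, Psph, Shmt2, Mthfd2, Aldh1l2 and Pck2, while S.C. mouse 2 has the lowest of the 8 values for Psph, Shmt1, Shmt2, Mthfd2, Aldh1l2 and Pck2.

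Of the serine synthesis enzymes, Phgdh (chr3:98313170-98339990, minus strand, GRCm38), the first and committing step, had the largest difference. Its level was 7.06 and 16.9 CPM in the DMSO mice, 118, 42.0, 18.7 and 73.4 in I.P. mice 1 to 4, and 72.5 and 27.6 in the S.C. mice. All 6 treated mice were above both controls, with I.P. mouse 3 only just above DMSO mouse 2. The group means were 12 ± 6.99 CPM (SD, n = 2) in DMSO, 63.1 ± 43.1 (n = 4) in I.P. and 50.1 ± 31.8 (n = 2) in S.C. mice. The fitted difference was a log2 fold change of 2.38 (SE 0.73, 5.20-fold) for I.P. and 2.03 (SE 0.67, 4.08-fold) for S.C. mice, and between the routes, S.C. against I.P., -0.33 (SE 0.68). The I.P. value was 1.89 without DMSO mouse 1 and 3.16 without DMSO mouse 2, and the S.C. value ranged from 1.17 without S.C. mouse 1 to 2.79 without DMSO mouse 2. The next highest levels after I.P. mouse 1, in I.P. mouse 4 and S.C. mouse 1, came with the highest melanoma marker sums (1759 and 3063 CPM), and I.P. mouse 3, with the least Phgdh of the treated mice, had the lowest (484). The sum in I.P. mouse 1, which had the most Phgdh, was 551 CPM, beside 624 and 707 for the controls. The part of melanoma RNA in Phgdh was not tested. Of the distinct 50-base stretches of the Phgdh transcript 47.8% also occur in transcripts of 23 other annotated genes, of which 3 had entries with at most 2 counts in any library, so reads from the copies could have been counted as Phgdh. In bulk RNA a change in the mRNA per cell and a change in the share of cells that carry it cannot be told apart, here and below.

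Psat1 (chr19:15904678-15947337, minus strand), which makes phosphoserine by transamination, was at 89.9 and 93.6 CPM in the DMSO mice, 38.7, 94.1, 98.3 and 70.0 in the I.P. mice, with 74.9 and 69.6 for S.C. mice 1 and 2. The I.P. mice spanned both controls, with I.P. mouse 1 lowest, and both S.C. mice were below both controls. The log2 fold change was -0.29 (SE 0.36) for I.P. and -0.37 (SE 0.30) for S.C. mice, and leaving out I.P. mouse 1 gave -0.07. That mouse had the highest Phgdh level and also the lowest S phase and mitosis level, and the part of the latter in Psat1 was not tested.

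Psph (chr5:129765558-129787449, minus strand), the phosphatase that releases serine, was at 12.8 and 11.7 CPM in the DMSO mice, against 24.3, 20.2, 18.2 and 19.4 in the I.P. mice. The I.P. mice were all above the controls, and the difference was 0.74 (SE 0.25) on the log2 scale. In the S.C. mice it was 23.9 and 9.17 CPM, 1 above and 1 below both controls, for a difference of 0.41 (SE 0.62), which was -0.44 without S.C. mouse 1 and 0.91 without S.C. mouse 2.

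The balance along the pathway differed between mice. Per kilobase of transcript, Phgdh stood to Psat1 at 0.109 and 0.25 in the DMSO mice, 4.23, 0.617, 0.264 and 1.45 in the I.P. mice, with 1.34 and 0.548 for S.C. mice 1 and 2. All 6 treated mice were above the higher DMSO ratio, with I.P. mouse 3 close to it. Phgdh to Psph was 0.504 and 1.33 in the DMSO mice, 4.46, 1.91, 0.945 and 3.47 in the I.P. mice, with 2.77 and 2.75 for S.C. mice 1 and 2. These ratios compare transcripts, not enzyme amounts, and the Phgdh counting limit above applies to them.

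**Figure D2:**
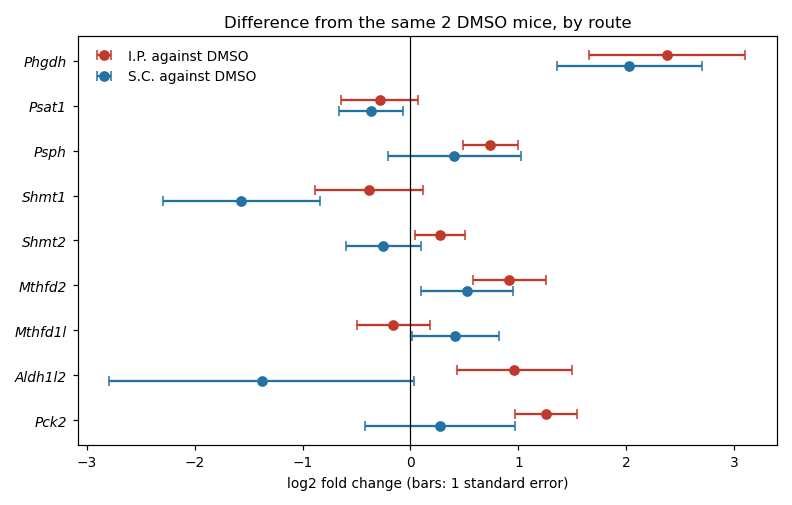
The horizontal axis gives the log2 fold change against the same 2 DMSO mice from the edgeR fit of each comparison, with 1 standard error, for the 9 genes in I.P. (red) and S.C. (blue) mice. Phgdh is highest for both routes, at 2.38 and 2.03, and the widest intervals are those of Aldh1l2, Shmt1, Pck2 and Phgdh.

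Of the serine hydroxymethyltransferases, Shmt2 (chr10:127517123-127522444, minus strand), the mitochondrial form, was at 73.5 and 69.9 CPM in the DMSO mice, 76.9, 90.6, 75.7 and 104 in the I.P. mice, with 73.9 and 48.8 for S.C. mice 1 and 2. The I.P. mice lay above both controls by small margins, with mouse 4 highest. The differences were 0.27 (SE 0.23) for I.P. and -0.25 (SE 0.35) for S.C. mice on the log2 scale, the latter -0.58 without S.C. mouse 1 and -0.02 without S.C. mouse 2.

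Shmt1 (chr11:60788104-60811718, minus strand), the cytosolic form, was at 26.1 and 26.7 CPM in the DMSO mice, 6.24, 25.2, 21.8 and 27.7 in the I.P. mice, with 14.6 and 3.57 for S.C. mice 1 and 2. I.P. mouse 1 and both S.C. mice were low, and the other 3 I.P. mice overlapped the controls. The log2 fold change was -0.39 (SE 0.50) for I.P. and -1.57 (SE 0.73) for S.C. mice, and with I.P. mouse 1 left out the former was -0.09. The S.C. value was -2.91 without S.C. mouse 1 and -0.92 without S.C. mouse 2. In S.C. mice Shmt1 missed the criterion in the main edgeR fit, with another filter, RLE size factors or library size only. It also missed it by the likelihood ratio test and with all 3 groups in 1 fit. It met it with no low-count filter, by DESeq2 and with the replicate block. S.C. mouse 2, with the least Shmt1, had the highest neutrophil marker sum, 498 CPM, and I.P. mouse 1 the lowest S phase and mitosis level, and the part of these in Shmt1 was not tested. Per kilobase, Shmt2 exceeded Shmt1 by 3.51 and 3.27 times in the DMSO mice, 15.4, 4.49, 4.34 and 4.69 times in the I.P. mice and 6.32 and 17.1 times in the S.C. mice.

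Mthfd2 (chr6:83305691-83325908, minus strand), the mitochondrial dehydrogenase and cyclohydrolase, was at 41.8 and 42.5 CPM in the DMSO mice, 56.6, 77.3, 63.5 and 121 in the I.P. mice, with 82.2 and 41.6 for S.C. mice 1 and 2. All the I.P. mice were above the controls, while S.C. mouse 2 was at their level. The log2 fold change was 0.92 (SE 0.34) for I.P. and 0.53 (SE 0.43) for S.C. mice, the latter -0.05 without S.C. mouse 1 and 0.90 without S.C. mouse 2. The highest levels, in I.P. mouse 4 and S.C. mouse 1, came with the highest melanoma marker sums (1759 and 3063 CPM), and the part of melanoma RNA in Mthfd2 was not tested. Leaving out I.P. mouse 4 gave 0.64 for the I.P. group, and I.P. mouse 3, with a melanoma sum of 484 CPM, had 63.5 CPM of Mthfd2, also above both controls.

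Mthfd1l (chr10:3973118-4167081, plus strand), the mitochondrial formate synthetase, was at 26.0 and 24.1 CPM in the DMSO mice, 22.6, 14.8, 18.8 and 33.8 in the I.P. mice, with 26.8 and 41.1 for S.C. mice 1 and 2. The I.P. mice fell on both sides of the controls, and both S.C. mice were above them, mouse 1 by less than 1 CPM. The differences were -0.16 (SE 0.34) and 0.42 (SE 0.41) on the log2 scale, and the S.C. value was 0.04 without S.C. mouse 2.

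Aldh1l2 (chr10:83487450-83534140, minus strand), the mitochondrial formyltetrahydrofolate dehydrogenase, was the least expressed, with 20 and 25 counts (1.36 and 1.44 CPM) for the DMSO group, and 2.55, 3.28, 2.2 and 2.92 CPM in the I.P. mice. The S.C. mice had 15 and 1 counts, and the single count of mouse 2 was below the floor of 3. The I.P. mice were above and both S.C. mice below the controls. The log2 fold changes were 0.96 (SE 0.54) and -1.38 (SE 1.41), and S.C. against I.P. it was -2.31 (SE 1.13). The route value missed the criterion in the main edgeR fit. It met it by the likelihood ratio test, by DESeq2 and with all 3 groups in 1 fit. Leaving out S.C. mouse 1, which leaves the single count of mouse 2, moved the S.C. value to -4.14 and the route value to -5.09, and leaving out S.C. mouse 2 moved them to -0.53 and -1.44.

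Pck2 (chr14:55540266-55551242, plus strand) was at 11.6 and 18.3 CPM in the DMSO mice, 37.8, 33.8, 31.7 and 40.6 in the I.P. mice, with 28.5 and 8.44 for S.C. mice 1 and 2. The I.P. mice lay close together and well above both controls, and the S.C. mice lay on either side of them. The log2 fold change was 1.26 (SE 0.29, 2.39-fold) for I.P. and 0.27 (SE 0.70) for S.C. mice, the latter 0.87 without S.C. mouse 2 and -0.85 without S.C. mouse 1. Pck2 in the I.P. mice was 0.97 without DMSO mouse 1, which ends its 2-fold call, and 1.63 without DMSO mouse 2. The cytosolic form, Pck1, had 0 to 3 counts in every library and was not tested.

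**Figure D3:**
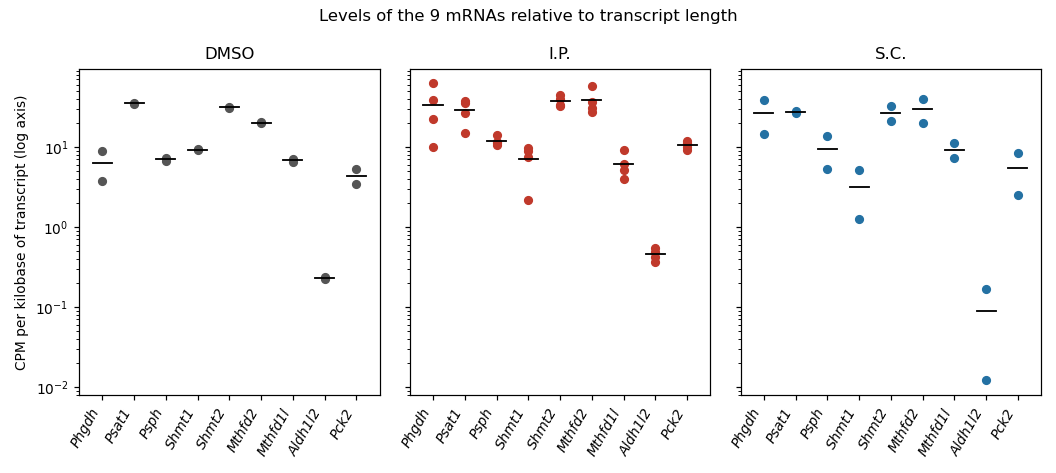
Each panel plots the CPM per kilobase of transcript (log axis) of the 9 genes in the mice of 1 group, with the group mean as a line. Psat1 is highest in the DMSO mice at 35.1 and Mthfd2 in the I.P. and S.C. mice at 38.2 and 29.7, and Aldh1l2 is lowest in every group.

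Per kilobase, the DMSO mice ordered the mRNAs as Psat1 (35.1 ± 1.01 CPM per kb, SD, n = 2), Shmt2 (31.3 ± 1.12), Mthfd2 (20.2 ± 0.24), Shmt1 (9.24 ± 0.14), Psph (7.06 ± 0.47), Mthfd1l (6.79 ± 0.36), Phgdh (6.34 ± 3.69), Pck2 (4.40 ± 1.40) and Aldh1l2 (0.232 ± 0.009). The ranges of neighbours from Psph to Pck2 overlapped, and the others did not. In the I.P. mice Mthfd2 (38.2 ± 13.9, n = 4), Shmt2 (37.9 ± 5.79), Phgdh (33.3 ± 22.8) and Psat1 (28.8 ± 10.5) came first with overlapping ranges. Psph (11.8), Pck2 (10.6), Shmt1 (7.07) and Mthfd1l (6.11) followed, also with overlap between neighbours, and Aldh1l2 (0.454) was last, below the range of Mthfd1l. The range of Phgdh, 9.9 to 62.5 CPM per kb, took in values of Psph and Pck2, and in I.P. mouse 3 Phgdh was below Psph. The S.C. mice had the same first 4 genes, at 29.7 to 26.4 CPM per kb, with overlapping ranges. By group mean Phgdh was at rank 7 in the DMSO mice, rank 3 in the I.P. and rank 4 in the S.C. mice. Single mice did not all follow these ranks. In DMSO mouse 2 Phgdh, at 8.95 CPM per kb, was above Psph (6.73), Mthfd1l (6.54) and Pck2 (5.39), and close to its 9.9 in I.P. mouse 3.

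The comparison of routes was of the 2 S.C. with the 4 I.P. mice, and the dose differed along with the route. Here 0 of the 9 members were called, while 860 of 12206 genes (7.05%) were, and 0 passed an unadjusted P under 0.05, against 8.59%. In edgeR 0% of genes had an adjusted p under 0.05, 1049 an unadjusted P under 0.05, and DESeq2 gave 234 genes, none of them members. Both S.C. mice lay below all the I.P. mice for Shmt2, Pck2 and Aldh1l2, as for 10.5% of genes, and above for 0 members, as for 8.05%. The members' median log2 difference, S.C. against I.P., was -0.36 beside 0.02 over all genes. It was negative for 8 of the 9, from -0.06 for Psat1 to -2.31 for Aldh1l2, and 0.59 (SE 0.40) for Mthfd1l. The interval of several of these is wide, as for Pck2 (-0.96, SE 0.48) and Shmt1 (-1.15, SE 0.74), and a value near 0 such as Phgdh (-0.33, SE 0.68) does not show that the routes act alike. S.C. mouse 2 set much of this pattern, and without it the median was -0.01 while without S.C. mouse 1 it was -1.16.

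**Figure D4:**
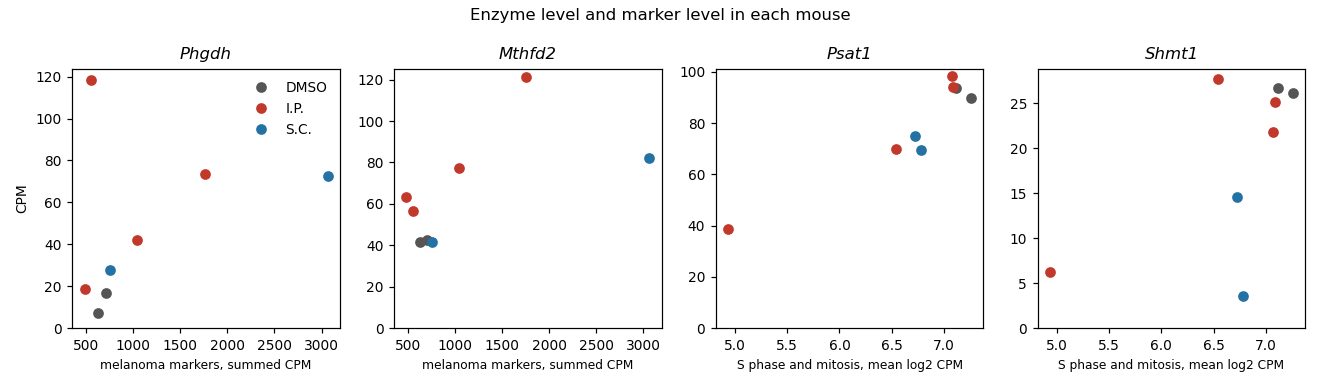
Phgdh and Mthfd2 in CPM are plotted against the summed CPM of 8 melanoma markers, and Psat1 and Shmt1 against the mean log2 CPM of 16 S phase and mitosis genes, 1 point per mouse coloured by group. Phgdh is highest in I.P. mouse 1 at a melanoma sum of 551 and next in I.P. mouse 4 and S.C. mouse 1 at the 2 highest sums, 1759 and 3063, Mthfd2 is highest in I.P. mouse 4 at 1759, and the point of I.P. mouse 1 at 4.94 lies far to the left of the others for Psat1 and Shmt1.

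The genes around the 9 were given by lists of enzymes, carriers, regulators and ATF4 targets. Of 82 genes tested in the 9 lists other than ATF4 targets and cell cycle genes, I.P. mice had 1 called higher and 0 lower. Of all genes 2% were called there. S.C. mice, of 80, had 0 higher and 2 lower, where 5.06% of all genes were called. None of the 10 other folate enzymes tested was called in either comparison, and 0 had an unadjusted P under 0.05 in edgeR or DESeq2. Among them Mthfd1, the cytosolic enzyme that joins several folate steps, was at 49.5 and 39.6 CPM in the DMSO mice, 15.2, 47.4, 35.9 and 51.9 in the I.P. mice, with 21.1 and 29.0 for S.C. mice 1 and 2, low in I.P. mouse 1 as Shmt1 was. The differences were -0.25 and -0.86 on the log2 scale for I.P. and S.C. mice. Mthfd2l, the related mitochondrial dehydrogenase, differed by -0.21 and -0.61. None of the purine synthesis genes (13 tested), of the methionine cycle genes (8 tested), of the genes that use serine (10 tested), of the other regulators (9 tested) or of the mitochondrial chaperones and proteases (10 tested) was called in either comparison, and of the glycine cleavage genes none of 3 in I.P. or of 2 in S.C. mice. Unadjusted P was under 0.05 for 1 purine gene (Adssl1, 0.76) in I.P. and for 1 regulator (Nfe2l2, the NRF2 gene, 0.90) in S.C. mice, and DESeq2 gave the same counts for these lists.

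Among 11 carriers tested in I.P. mice the neutral amino acid carrier Slc1a4 was 1.48 higher (log2, edgeR adjusted p = 0.98). Its levels overlapped, at 1.55 to 4.34 CPM in the DMSO mice and 3.10 to 10.6 in the I.P. mice. Slc38a2, a glutamine and serine carrier, was 0.94 higher without passing the fold limit. In the S.C. mice Folr2, a folate receptor of macrophages, fell by 1.23 (edgeR adjusted p = 0.86), from 174 and 387 CPM in the DMSO mice to 118 and 125. Pcx, pyruvate carboxylase, which makes the oxaloacetate that Pck2 uses, had 54 and 55 counts in the DMSO libraries and 22 to 154 in those of I.P. mice. It had 1 and 3 counts in S.C. mice 1 and 2, at or under the floor, and was called lower there. More expressed genes lacked counts in these 2 libraries than elsewhere, and the part of this in Pcx was not tested.

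Of ATF4 and its other targets, 7 of 25 were called higher and 0 lower in the I.P. mice, beside 2% of all genes called. Leaving out 1 I.P. mouse gave 5 to 9 called higher. The median was 0.68 beside 0.02 over all genes. This list was written with earlier results of these data known, so its counts are a description. Atf4 itself was at 72.7 and 141 CPM in the DMSO mice, against 412, 175, 233 and 198 in the I.P. mice, all above both controls (log2 fold change 1.25, SE 0.42, edgeR adjusted p = 0.98). Asns, asparagine synthetase, rose 3.99-fold, Chac1, a glutathione-degrading enzyme, 4.31-fold and Ddit3, the CHOP factor, 2.28-fold, at an edgeR adjusted p of 0.98 each. In the S.C. mice 2 of 24 were called higher (Slc7a11 and Atf3), beside 5.06% of all genes called, with a median of 0.16. Atf4 was at 170 and 133 CPM there, a difference of 0.48. S.C. against I.P., 4 of 24 (Aars, Sesn2, Trib3 and Chac1) were called lower and 0 higher, beside 7.05% of all genes called. In the S phase and mitosis list, 0 of 16 were called or had an unadjusted P under 0.05 in any comparison by edgeR or DESeq2, with medians of -0.55 in I.P. and -0.46 in S.C. mice.

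**Figure D5:**
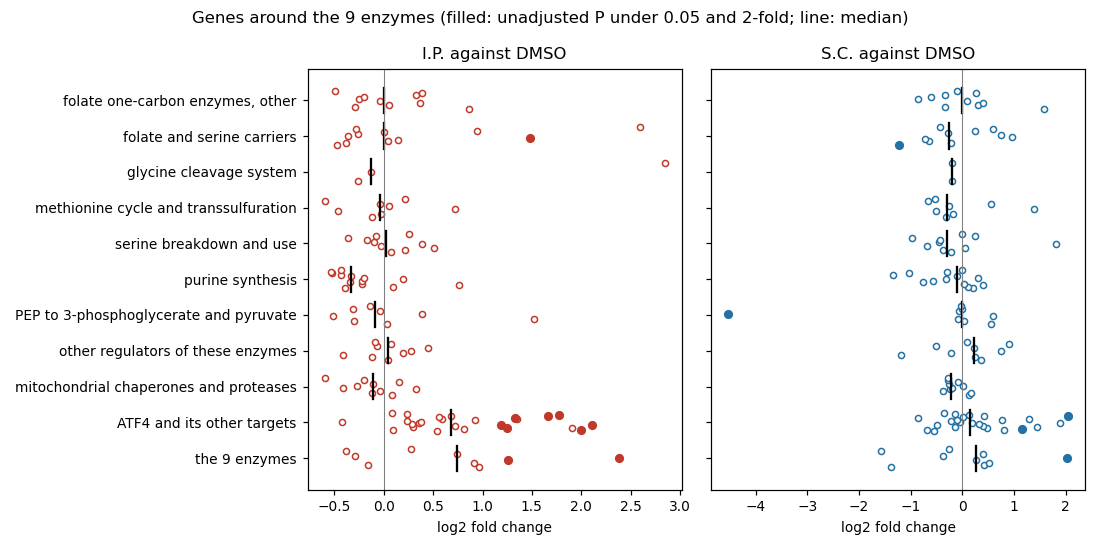
Each point is the log2 fold change of 1 gene against DMSO in I.P. (red) and S.C. (blue) mice, by list, filled where unadjusted P was under 0.05 with at least a 2-fold difference, and the line is the list's median. The medians of the 9 enzymes (0.74 in I.P., 0.27 in S.C.) and of ATF4 and its other targets (0.68 and 0.16) lie to the right in the I.P. panel.

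Over the 8 libraries the genes most like the mean profile of the 9, among 9320 whose mean reached 5 CPM, were Gars (Pearson's r 0.98), the glycyl-tRNA synthetase, Dus1l (0.94), Rragd (0.94), Ergic1 (0.93) and Smad2 (0.92). Gars is also in the list of ATF4 targets above. The 9 did not share 1 profile, with correlations between members from -0.71 (Phgdh and Psat1) to 0.91 (Shmt2 and Aldh1l2). These values describe likeness over 8 libraries that share groups and depth, and no test was made.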

How the data were processed

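RNA-seq of 8 libraries was used, with 14127506 to 17577466 counts each, which limits precision most for genes of few counts. The authors deposited raw counts per gene symbol in mm10. Their methods name bowtie2 2.2.3 and RSEM 1.2.15, while the submitters' processing notes name TopHat2 and edgeR, and the annotation release and strand setting are not given in the sources used here. The deposited counts were whole numbers and were not normalized.

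Genes were filtered with filterByExpr (minimum count 10, total 15), scaled by TMM and tested with the edgeR 4.0.16 quasi-likelihood F test (R 4.3.3), two-sided, with Benjamini-Hochberg adjustment over all genes tested, per pair of groups and with no covariate. Calls used unadjusted P under 0.05 and a fold of 2, the study's criterion. CPM used a prior count of 2 on the log2 scale. Levels per kilobase used the transcript with the longest coding sequence in GENCODE vM21 (GRCm38). Scripts were tested on simulated data. Groups and replicate numbers came from the labels, and each library came from 1 mouse. The members and lists were chosen with earlier results of these data known. Named genes were the 9 members, up to 3 genes per list with unadjusted P under 0.05 in the I.P. or S.C. comparison and a mean of at least 1 CPM, Atf4, Mthfd1, Mthfd2l, Pck1 and Folr2 whatever their values, and the 5 most alike. Trib3, Sesn2, Aars, Slc7a11 and Atf3 were named after their values were seen. Alternatives were another filter, no filter, RLE size factors, library size only, the likelihood ratio test, DESeq2 1.42.0, all 3 groups in 1 fit, the replicate block, and leaving out each mouse.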

Additional observations from a re-analysis of the deposited data

Results flagged for a closer look

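Aldh1l2 went opposite ways in the treated groups, above both DMSO mice in all 4 I.P. mice and below both in the 2 S.C. mice. All the I.P. mice lay above the controls for 7.31% of genes, and both S.C. mice lay below them for 17.2%. The log2 difference, S.C. against I.P., was -2.31 (SE 1.13), given as a description like all values of the 9 genes. It missed the study's criterion in edgeR's quasi-likelihood test and met it by the likelihood ratio test, DESeq2 and all 3 groups in 1 fit. S.C. mouse 2 had 1 count and S.C. mouse 1 had 15, against 20 and 25 in the DMSO mice. The S.C. difference from DMSO was -1.38, less than its standard error in size, and -0.53 without S.C. mouse 2. Both S.C. libraries also had more expressed genes without a count, 48 and 36 of 9329 against 1 to 12 elsewhere. The part of this in Aldh1l2 was not tested.

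Slc1a4 in I.P. mouse 3 was far from the other I.P. mice, at 3.10 CPM against 9.55 to 10.6, with a gap of 0.862 of the group's range. Adssl1 was far out in I.P. mouse 1, at 253 CPM against 143 to 154, with a gap of 0.900. Both exceeded Dixon's critical value for 4 samples, which chance exceeds in about 1 in 20 groups, and 22 genes were examined.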

How the results depend on the processing

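The calls in I.P. mice numbered 243 genes and 2 members. All 3 groups in 1 fit gave 160 genes. Leaving out 1 mouse gave 116 to 361 genes and 0 to 3 members. In S.C. mice (591 genes, 1 member) no filter, DESeq2, the replicate block and the crossed replicate block each gave 2 members, and leaving out 1 mouse gave 113 to 3432 genes, 0 to 3 members and a median of -0.44 to 0.33. That median was 0.13 by library size only and 0.07 with the replicate block and with the crossed block, which was added after seeing the data and called 475 genes. For S.C. against I.P. (860 genes, 0 members, median -0.36), the likelihood ratio test, DESeq2 and all 3 groups in 1 fit gave 1 member. The replicate block gave 391 genes and a median of -0.57, library size only -0.48, and leaving out 1 mouse 632 to 2115 genes, 0 to 4 members and -1.16 to -0.01. In I.P. mice the block gave 152 higher and 178 lower genes against 186 and 57, and in S.C. mice library size only 196 and 429 against 268 and 323. Block fits that include the I.P. group take its difference from I.P. mice 1 and 2 only, as no other group has replicates 3 and 4. Same-numbered mice did not deviate together (correlations -0.144 to 0.0743), so the numbers were not used as pairs. The members' I.P. values, 72 with another setting and 54 without a mouse, moved by less than the replicate spread. This spread was the SD of log2 CPM pooled within all 3 groups, so it included the S.C. pair. Without a mouse, 6 values for S.C. against DMSO and 6 for S.C. against I.P. moved by more (30 and 48 did not), all on leaving out S.C. mouse 1, and the sign turned for Psph, Mthfd2 and Pck2 against DMSO. With 1 mouse left in a group it is assumed to vary like the others. Beyond the make-up of the block, the cause of these changes was not tested. Depth limits Aldh1l2 most.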
